A study of Mus musculus with 24 samples.

Results

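The T cell and cytotoxic genes Cd3d, Cd3e, Cd3g, Cd4, Cd8a, Cd8b1, Foxp3, Gzma, Gzmb and Ifng were followed by symbol through 24 RNA-seq libraries of mouse colorectal tissue. They are 10 of 24346 listed symbols. All tissue carried the treatment label AOM/DSS. Azoxymethane (AOM) is a colon carcinogen, and dextran sulfate sodium (DSS) damages the epithelium and causes colitis. Each piece of tissue was labelled tumor or normal and c-MAF_KO or WT. From the titles, which combine a leading number, a zygosity or age word and the tissue, the c-MAF_KO tumors fell into the groups KO-1-hetero (3 libraries), KO-8-homo (3) and KO-8-hetero (3), and the WT tumors into WT-young (4) and WT-old (1), with 2 normal libraries in each of the 5 matching groups. The meaning of the leading numbers and of the word drug, which every title carries, is not given, and neither are the driver of the deletion, the ages behind young and old, or which libraries came from 1 animal. The p-values below therefore measure the spread between these samples, part of which may be technical.

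Cd3d, Cd3e and Cd3g encode invariant chains of the T cell receptor complex, which carry the signal of the receptor into the cell, and Cd4, Cd8a and Cd8b1 encode the coreceptors that bind MHC class II or class I. Foxp3 encodes the transcription factor that defines regulatory T cells, which hold immune responses in check and are frequent in the gut wall. Gzma and Gzmb encode granzymes, serine proteases stored in the granules of cytotoxic T cells and natural killer cells, and Ifng encodes interferon gamma, the cytokine that induces antigen presentation and guanylate-binding proteins in neighbouring cells. In mice, Gzmb is also made by mast cells, Cd4 by some macrophages and dendritic cells, and Cd8a without Cd8b1 (as a CD8 alpha homodimer) by intraepithelial lymphocytes and some dendritic cells. The c-MAF protein is a basic leucine zipper factor that acts in several T cell subsets.

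Values were FPKM (fragments per kilobase of transcript, scaled by mapped fragments), which can be compared between genes. In whole tissue, fewer cells of a type and less RNA per cell cannot be told apart. Between 12074 and 13290 genes reached 1 FPKM in a library, and relative depth, estimated from the smallest values, ranged from 0.691 to 1.87 of the median library. Epithelial marker genes (Epcam, Krt8, Krt20, Cdh1 and Vil1) summed to 2654 to 7481 FPKM per library. Maf was not lower under the KO label: it measured 2.62 to 7.40 FPKM in KO-labelled and 1.63 to 7.26 FPKM in WT-labelled tumors, so that the libraries are called KO-labelled here. Xist was above 1 FPKM in 6 libraries, at 7.38 to 49.9 FPKM, and at most 0.0719 FPKM in the others. These were KO-1-hetero tumor 3, KO-8-hetero tumor 3 and the 4 KO-1-hetero and KO-8-hetero normal libraries. Under the KO label they were thus 2 of 9 tumors and 4 of 6 normal libraries, so that Xist was unbalanced between the tissues compared below. A pair of tumors stood apart in lymphocyte genes. WT-old tumor 1 had the highest value of 7 of the 10 genes and B cell markers (Cd79a, Cd79b, Ms4a1, Cr2 and Fcer2a) summing to 916 FPKM, against a range of 2.85 to 119 FPKM in the other tumors. KO-1-hetero tumor 3 was among the highest 2 libraries for 8 of the 10 genes. At the other end, WT-young normal 2 was lowest for 8.

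In the RefSeq annotation of GRCm38.p6, the 3 Cd3 genes lie together on chromosome 9 within 40092 bases: Cd3g at chr9:44969572-44980431 on the minus strand, Cd3d at chr9:44981769-44987052 on the plus strand and Cd3e at chr9:44998735-45009663 on the minus strand. Cd3g and Cd3d are transcribed away from each other across a gap of 1337 bases. Cd8b1 at chr6:71322788-71337492 and Cd8a at chr6:71373427-71379171 are also neighbours, 35934 bases apart, and Cd4 lies elsewhere on that chromosome at chr6:124864693-124888247. The remaining genes are Foxp3 at chrX:7579676-7595243, Gzma at chr13:113093824-113100981, Gzmb at chr14:56258836-56262334 and Ifng at chr10:118441046-118445894. All 10 are protein-coding.

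The 250 bases before a listed transcript start, from RefSeq for GRCm38.p6, were matched by symbol for 8 of the 10 genes, with a pair of starts for Foxp3. For Cd3d and Cd3e the listed start lies inside the annotated gene, so that their windows reach into it. Distances of sites are counted from the listed start. The sequences are shown 5′ to 3′ for the divergent Cd3 pair, for Foxp3 and for the 2 granzymes, and those of Cd3e, Cd8a and Ifng are not printed. Capitals mark a MAF core (TGCTGA or its reverse complement) and an E-box (CANCTG or its reverse complement), the site bound by basic helix-loop-helix factors such as those that act in T cell development. The windows are chr9:44981536-44981785 on the plus strand for Cd3d, chr9:44980432-44980681 on the minus strand for Cd3g, chrX:7579426-7579675 on the plus strand for Foxp3, chr13:113100982-113101231 on the minus strand for Gzma and chr14:56262335-56262584 on the minus strand for Gzmb.
Cd3d promoter: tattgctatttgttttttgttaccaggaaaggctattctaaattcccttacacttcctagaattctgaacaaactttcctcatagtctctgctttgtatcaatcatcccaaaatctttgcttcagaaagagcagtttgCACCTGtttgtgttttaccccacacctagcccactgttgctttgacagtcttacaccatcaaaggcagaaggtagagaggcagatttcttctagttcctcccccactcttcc
Cd3g promoter: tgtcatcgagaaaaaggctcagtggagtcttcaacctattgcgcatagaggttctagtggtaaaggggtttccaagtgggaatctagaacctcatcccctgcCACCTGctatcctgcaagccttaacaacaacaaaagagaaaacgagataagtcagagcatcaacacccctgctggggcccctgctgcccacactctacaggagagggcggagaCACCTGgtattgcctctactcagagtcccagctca
Foxp3 promoter: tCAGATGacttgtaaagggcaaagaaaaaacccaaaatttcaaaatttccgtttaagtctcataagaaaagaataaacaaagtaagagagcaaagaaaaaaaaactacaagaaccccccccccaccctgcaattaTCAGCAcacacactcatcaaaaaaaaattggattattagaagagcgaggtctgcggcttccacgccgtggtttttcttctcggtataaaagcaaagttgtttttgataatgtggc
Gzma promoter: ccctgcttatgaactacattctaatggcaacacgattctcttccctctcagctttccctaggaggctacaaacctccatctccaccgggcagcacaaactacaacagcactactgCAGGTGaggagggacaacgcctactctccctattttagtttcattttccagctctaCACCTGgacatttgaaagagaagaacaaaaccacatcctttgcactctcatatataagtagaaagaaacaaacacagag
Gzmb promoter: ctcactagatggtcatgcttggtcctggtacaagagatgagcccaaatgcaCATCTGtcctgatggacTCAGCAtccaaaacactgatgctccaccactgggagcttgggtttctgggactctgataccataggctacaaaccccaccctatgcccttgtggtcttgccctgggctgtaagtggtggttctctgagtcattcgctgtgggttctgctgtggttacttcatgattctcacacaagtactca

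The E-box was found in 6 of the 8 genes (7 of their 9 windows) and in 44.8% of all 32851 windows of this length. Cd3g held 2, at 148 to 143 and at 35 to 30 bases before the start, and both read CACCTG, as did the single one of Cd3d at 112 to 107. Gzma also held 2, at 135 to 130 and at 79 to 74. The MAF core was found in 2 of the 8 genes (2 of their 9 windows), Gzmb at 182 to 177 and Foxp3 at 115 to 110 bases before the start, and in 16.1% of all windows. The Foxp3 match lies in the printed window, and the window of the other Foxp3 start held none. No member held a full MAF site (the core and its reverse complement around 1 base, so that it contains the core on both strands), which occurred in 2 of the 32851 windows. Of the other motifs searched on both strands, the RUNX core TGTGGT was in 2 members (14.05% of windows), the GATA core AGATAA in 2 (9.99%), the ETS core GAGGAA in 3 (23.3%), the AP-1 site TGANTCA in 1 (6.75%), and the CRE TGACGTCA and the T-box AGGTGTGA in 0 (1.55% and 1.12%). Both granzyme windows held the RUNX core, at 50 to 45 bases before the start of Gzma and at 93 to 88 and 34 to 29 bases before that of Gzmb. A match is a description of letters only.

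On the FPKM scale, Cd3g was the highest of the 10 genes in tumors, with a median of 6.57 FPKM over 14 libraries. It was followed by Gzmb (5.45), Gzma (3.99), Cd4 (3.51), Cd3d (3.18), Cd3e (1.91), Cd8b1 (1.11), Cd8a (1.10), Foxp3 (1.06) and Ifng (0.425). In normal tissue the median of Cd3g was 3.18 FPKM over 10 libraries, followed by Gzma (2.89), Cd4 (2.83), Gzmb (1.65), Cd3d (1.41), Cd3e (1.08), Cd8a (0.712), Cd8b1 (0.511), Foxp3 (0.275) and Ifng (0.0409). The ranges of every pair of neighbours in either order overlapped. Gzmb stood above Gzma by its median in tumors and below it in normal tissue, and Cd8b1 and Cd8a likewise changed places, which the ratios below take up.

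**Figure D1:**
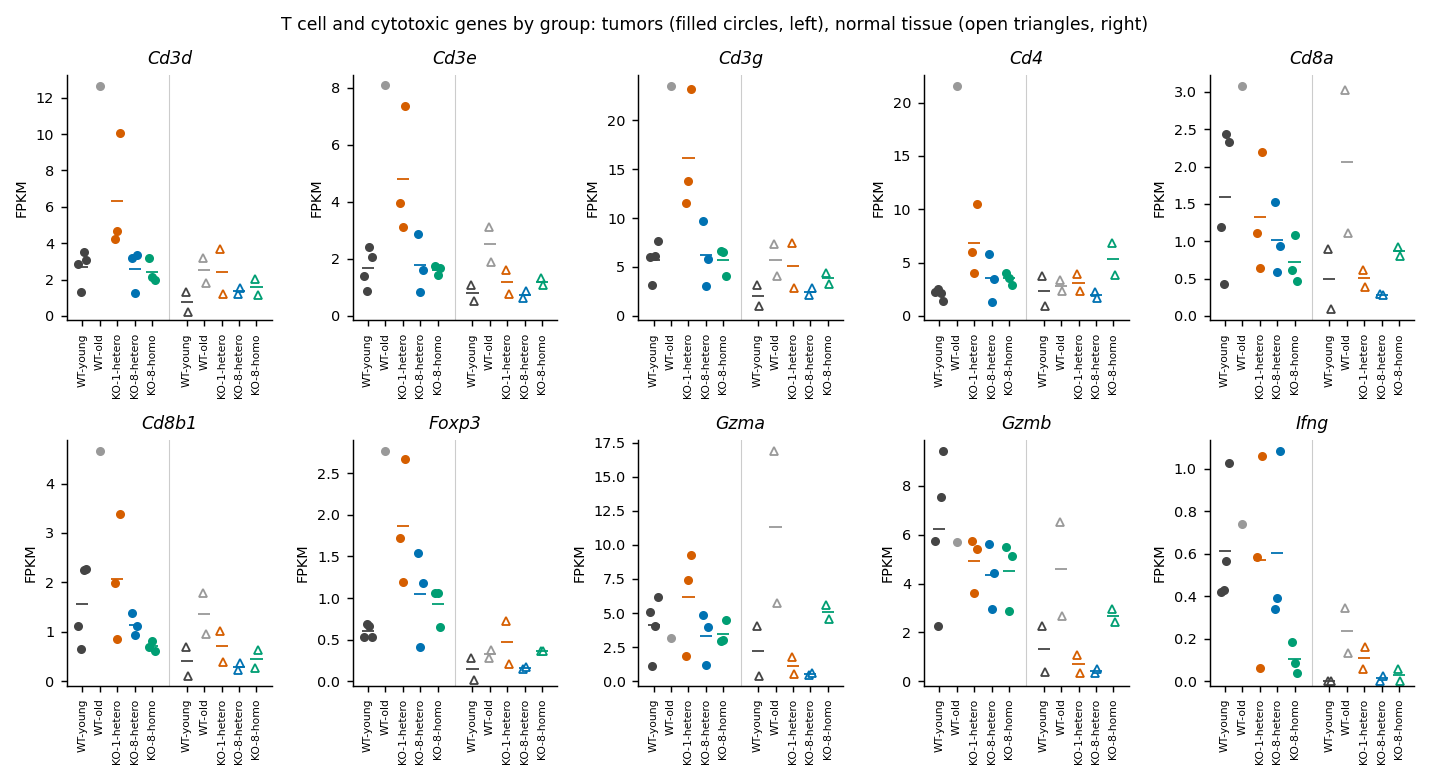
FPKM of the 10 genes on linear axes that differ between panels, 1 point per library, by title group (filled circles for tumors, open triangles for normal tissue), with a bar at each group mean. WT-old tumor 1 and KO-1-hetero tumor 3 lie at the top of the Cd3 and Cd4 panels, at 21.6 and 10.5 FPKM for Cd4, while the Gzma panel has its highest point, 16.9 FPKM, in WT-old normal tissue.

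The members were compared by how they varied between libraries, after the mean of each tissue was subtracted. Correlations are Pearson's r of log2(FPKM + 1) over 24 libraries, given as descriptions, and the value after removal of WT-old tumor 1 and KO-1-hetero tumor 3 (22 libraries) follows each. The libraries share depth and tissue composition. Cd3d and Cd3g, the divergent pair, had r of 0.96 (0.94). Cd4 and Foxp3 had r of 0.91 (0.84), Cd8a and Cd8b1 of 0.88 (0.87), and Gzma and Gzmb of 0.86 (0.88). Cd8a was closer to Gzmb, with r of 0.80 (0.86), than to Cd4, with r of 0.47 (0.23). The Cd3 genes did not side with Cd4 alone: Cd3e had r of 0.79 (0.59) with Cd4 and 0.86 (0.74) with Cd8b1. Cd4 with Cd8b1 went from 0.56 to 0.17 when the pair of tumors was removed, the widest change of the pairs named here. Foxp3 had r of only 0.17 (0.17) with Gzmb and 0.29 (-0.01) with Ifng, whereas Ifng had r of 0.68 (0.63) with Cd8b1.

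**Figure D2:**
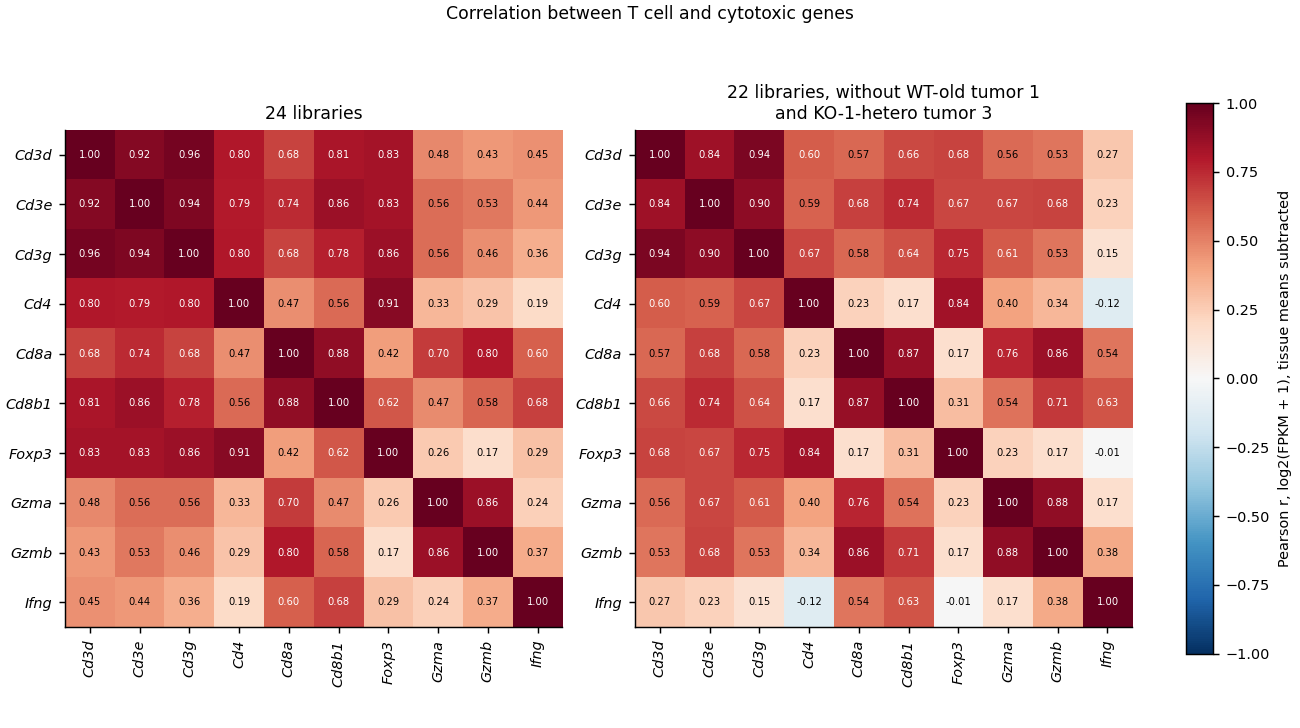
Pearson's r between the 10 genes on the log2(FPKM + 1) scale after subtraction of tissue means, over 24 libraries (left) and over 22 libraries without WT-old tumor 1 and KO-1-hetero tumor 3 (right). Cd4 with Foxp3 (0.91 and 0.84) and Cd8a with Gzmb (0.80 and 0.86) are high in both panels, Cd3e is high with Cd8b1 as well as with Cd4, and Cd4 with Cd8b1 drops from 0.56 to 0.17.

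Genes whose pattern was most like each member, by the same r over 24 libraries among 13799 expressed genes, were mostly lymphocyte genes. For Cd3g these were Cd96, a receptor of T and natural killer cells (0.97), Gimap7, a GTPase of lymphocytes (0.91), and Cd247, the zeta chain of the T cell receptor complex (0.90). For Cd3d they were Gimap7 (0.95), Cd96 (0.94) and Il2rb, the shared beta chain of the IL-2 and IL-15 receptors (0.92), and for Cd3e Cd96 (0.95), the kinase Lck (0.91) and Gimap7 (0.91). Cd4 was most like Slamf7 (0.96), Ly9 (0.94) and the costimulatory receptor Cd28 (0.94), and Foxp3 was most like Rinl (0.94), the gut-homing integrin chain Itgb7 (0.92) and Cd247 (0.91). Cd8a shared the chemokine Ccl5 and the granule gene Nkg7 with Cd8b1, at 0.87 and 0.84 for Cd8a and 0.91 and 0.88 for Cd8b1. The third gene was Cd7 (0.86) for Cd8a and Ms4a4b (0.89) for Cd8b1. The granzymes had less close companions: Cd7 (0.78), Gm1965 (0.77) and Rph3al (0.75) for Gzma, and Gm3414 (0.76), 3100003L05Rik (0.75) and Cd7 (0.74) for Gzmb. Ifng, in contrast to all of these, was most like Gm4841 (0.83), the interferon-inducible GTPase Igtp (0.83) and Gm12250 (0.82).

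Tumor and normal tissue were compared within each genotype label, and 9 of the 10 genes passed the filter on low values (at least 1 FPKM in at least 4 libraries), all but Ifng. Under the KO label, Gzmb, Foxp3 and Cd3g were higher in tumors, and no member was called lower. That is 3 of 9, where 47.2% of the 13799 genes tested were called, 24.1% higher and 23.2% lower (limma, Benjamini-Hochberg adjusted p under 0.05). The median difference of the 9 was 0.74 on the log2(FPKM + 1) scale against 0.02 over all genes tested. A share of 3 in 9 is not far from the background.

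Gzmb ranged from 2.87 to 5.75 FPKM in the 9 KO-labelled tumors, with a median of 5.15, and from 0.319 to 2.95 FPKM in the 6 KO-labelled normal libraries, with a median of 0.775. The ranges met only at one tumor, KO-8-homo tumor 2, which lay just below KO-8-homo normal 1. The difference was 1.42 on the log2(FPKM + 1) scale (SE 0.314, limma adjusted p = 0.000977), and 1.30 with log2(Xist + 1) as a covariate (limma adjusted p = 0.00415). Beside it, mast cell markers (Mcpt1, Mcpt2, Cpa3, Cma1 and Kit) summed to 42.1 to 490 FPKM in tumors and 12.6 to 37.0 FPKM in normal tissue, and 4 of the 5 were called higher and Kit lower under either label. Cma1 was listed at 0 in WT-old normal 1. Their part in the Gzmb difference was not tested.

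Foxp3 ranged from 0.412 to 2.68 FPKM in KO-labelled tumors (median 1.18) and from 0.149 to 0.725 FPKM in KO-labelled normal tissue (median 0.285). KO-8-hetero tumor 2 and KO-8-homo tumor 3 lay within the normal range. The difference was 0.74 (SE 0.196, limma adjusted p = 0.00396), which understates the change of so low a gene because of the pseudocount of 1.

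Cd3g ranged from 3.01 to 23.1 FPKM in KO-labelled tumors (median 6.65) and from 2.17 to 7.43 FPKM in normal tissue (median 3.04). The ranges overlapped broadly, and the difference of 0.98 (SE 0.386, limma adjusted p = 0.0406) lost its call when any 1 of 8 of the 15 libraries was left out. It ran from 0.80 to 1.16 over all 15. With no low-value filter its adjusted p was 0.0595 (limma). The other chains gave 0.69 for Cd3d (limma adjusted p = 0.103) and 0.74 for Cd3e (limma adjusted p = 0.0583). The coreceptors gave 0.30 for Cd4 (limma adjusted p = 0.544), 0.36 for Cd8a (0.239) and 0.59 for Cd8b1 (0.0567), and Gzma gave 0.85 (0.131). None of these passed.

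Under the WT label none of the 9 passed with limma (3 passed without WT-young tumor 2, and 1 without WT-young tumor 4 or without WT-old normal 1), where 15.5% of all genes were called higher and 30.4% in either direction, and 4 members had an unadjusted p under 0.05. Their median difference was 0.63 on the log2(FPKM + 1) scale against 0.02 over all genes. Foxp3 was at 0.530, 0.685, 0.666 and 0.531 FPKM in the WT-young tumors and 2.76 in the WT-old tumor, all above the 4 WT-labelled normal libraries at 0.0101 to 0.379 FPKM (12.3% of all genes lay above without overlap here). Its difference was 0.63 (SE 0.250, limma adjusted p = 0.0585). Gzmb gave 1.00 (SE 0.400, limma adjusted p = 0.0603), Cd3d 0.97 (limma adjusted p = 0.0945) and Cd8b1 0.70 (limma adjusted p = 0.0948). Gzma gave -0.25 (limma adjusted p = 0.771), and the interval of that difference ran from -1.46 to 0.96. The WT-labelled normal libraries held Gzma at 16.9 and 5.72 FPKM in WT-old and at 4.04 and 0.400 FPKM in WT-young tissue, against 1.13 to 6.14 FPKM in the 5 WT-labelled tumors.

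The interaction of label and tissue, the difference between labels in the tumor effect, was called for 0 of 9 members and 0% of all genes (limma), with 0 members at an unadjusted p under 0.05. The largest, for Gzma, was 1.10, with an interval of -0.44 to 2.65.

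**Figure D3:**
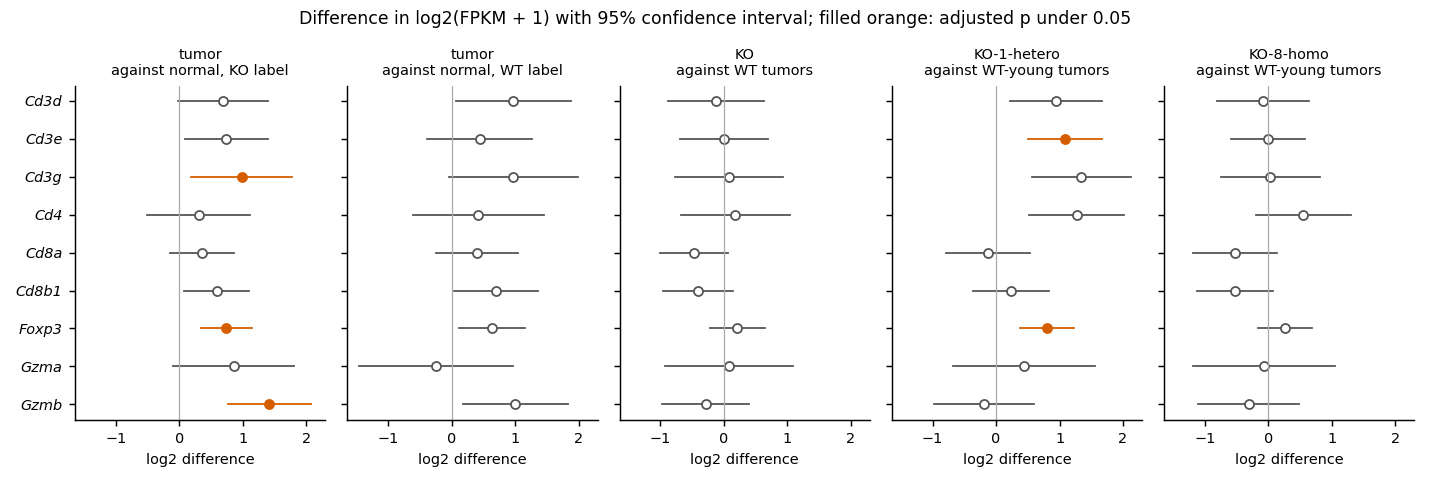
Differences on the log2(FPKM + 1) scale with 95% intervals from limma for the 9 genes that passed the filter, in 5 comparisons, filled orange where the adjusted p was under 0.05. Calls appear in the tumor against normal comparison under the KO label (Cd3g, Foxp3, Gzmb) and in KO-1-hetero against WT-young tumors (Cd3e, Foxp3).

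Ifng was too low for the filter and was compared by exact permutation of log2(FPKM + 1), a test added after its values were seen. It ranged from 0.0400 to 1.08 FPKM in KO-labelled tumors (median 0.340) and from 0 to 0.1596 FPKM in KO-labelled normal tissue (median 0.0409). In WT-labelled libraries, tumors at 0.421 to 1.03 FPKM all lay above normal tissue at 0 to 0.343 FPKM. So did 12.3% of the genes that passed the filter, a set without Ifng. The exact two-sided p was 0.0116 under the KO label (difference 0.40) and 0.0159 under the WT label (difference 0.55), and 0.0714 for both after Benjamini-Hochberg adjustment over 9 such tests. Under the WT label this was the smallest p that 5 against 4 libraries allow. With no low-value filter, limma called both differences at adjusted p = 0.034 and 0.0339. In units of the value that 1 read is worth, Ifng stood at 2 to 45 in tumors and 0 to 9 in normal libraries, and it was listed at 0 in 4 normal libraries, where a count of 0 allows up to 0.0655 to 0.103 FPKM (3 reads, counting error only).

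Other genes of T cell biology were counted from lists, to be read against the 24.1% (KO label) and 15.5% (WT label) of all genes called higher. Of 11 checkpoint and costimulatory genes, 8 rose in KO-labelled tumors and 9 in WT-labelled tumors. The list joins receptors with the ligands Cd274 and Pdcd1lg2. Cd274 was among the rising genes under both labels, and Pdcd1lg2 under the WT label. The smallest p under the KO label were those of Tnfrsf9 (4-1BB, 2.35), Havcr2 (TIM-3, 1.06) and Tnfrsf4 (OX40, 1.13). Of 11 tested genes of receptor signalling, 4 rose under the KO label, among them the kinase Zap70 (1.69), the adaptor Lcp2 (1.31) and Cd5 (0.75), and 2 rose under the WT label, a share near that of all genes. Of 5 tested cytotoxic and natural killer genes (12 others of the list did not pass the filter), Gzmc (0.79) rose under the KO label, and Gzmc (1.04), Gzmk (1.38) and Nkg7 (1.51) under the WT label. All 3 tested cytokine and receptor genes rose under the KO label, Tnf (2.09), Il2rb (0.97) and Il2ra (0.70), and 2 of them under the WT label, Tnf (2.28) and Il2rb (1.20). All these values are differences on the log2(FPKM + 1) scale with limma adjusted p under 0.05.

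Among 6 tested transcription factors, 4 rose and 1 fell under the KO label. Tcf7, a factor of naive and stem-like T cells that also acts in the Wnt pathway of epithelium, rose by 1.65. Ikzf2 (Helios), found in many regulatory T cells, rose by 0.69. Zbtb7b, which directs CD4 lineage choice, fell by 0.86. Under the WT label 2 rose and 2 fell. Of 12 tested genes of the interferon gamma receptor, its signalling and its targets, 6 rose and 1 fell under the KO label and 8 rose under the WT label, with the smallest p under the KO label for Nlrc5 (1.73), Cxcl9 (2.65) and Cxcl10 (2.39). The chemotaxis list had 2 rising and 1 falling of 11 under the KO label, Itgae (0.72), Cxcr6 (0.99) and Ccl25 (-0.49), and 0 rising and 1 falling under the WT label, Ccl25 (-0.86). Of 6 genes of gamma-delta and intraepithelial T cells, Cd244 (1.95) rose and the epithelial butyrophilin-like genes Btnl1 (-2.84) and Btnl6 (-1.54) fell under the KO label, and Cd244 (1.95) rose and Btnl1 (-2.86) fell under the WT label. The constant genes of the receptor chains, such as Trac and Trbc1, are not analysed here.

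Markers of other cells moved in the same comparison. Neutrophil markers were higher in 4 of 4 and macrophage markers in 4 of 6 under each label, smooth muscle markers were lower in 5 of 5, and B cell markers were called in 0 of 5. Their part in the member values was not tested.

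Ratios of a pair of members within a library were taken of FPKM + 0.1, so that a factor shared by the library largely cancels except where values are near the pseudocount. In WT-young normal 2, for example, Foxp3 at 0.0101 FPKM and Cd3e at 0.505 FPKM gave a ratio of 0.182, most of it from the pseudocount. Of 10 such tests (5 ratios in 2 comparisons), 2 passed. Gzma to Gzmb was lower in tumors: its median was 0.753 in 14 tumors, ranging from 0.338 to 2.03, and 1.67 in 10 normal libraries, ranging from 1.06 to 2.56. Gzma exceeded Gzmb in every normal library. The difference in mean log2 ratio was -1.11, or 0.463-fold (two-sided permutation test with 100000 resamples, p = 0.00022, adjusted over 10 tests 0.0022). It was -0.86 within the KO label (permutation p = 0.0268, adjusted over 5 tests 0.0566) and -1.53 within the WT label (exact permutation p = 0.0159, adjusted 0.0794). In WT-labelled libraries the tumors lay at 0.519 to 0.882 and the normal tissue at 1.06 to 2.56, without overlap. The unadjusted p within the WT label was thus the smallest that 5 against 4 libraries allow.

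Foxp3 to Cd3e, the regulatory T cell factor relative to a chain of all T cells, was higher in tumors, with a median of 0.439 against 0.316 in normal tissue. The difference in mean log2 ratio was 0.76 (permutation p = 0.00242, adjusted over 10 tests 0.0121). It was 0.56 within the KO label (permutation p = 0.00879, adjusted over 5 tests 0.044) and 1.00 within the WT label (exact permutation p = 0.0476, adjusted 0.119). A pseudocount of 1 in place of 0.1 gave 0.09 (adjusted permutation p = 0.705). The remaining ratios did not pass. Gzmb to Cd3e differed by 0.94 (adjusted permutation p = 0.0558), Cd8a to Cd8b1 by -0.46 (0.0574) and Cd4 to Cd8a by -0.33 (0.522). Where the 6 libraries with Xist above 1 FPKM were left out, Gzma to Gzmb gave -1.39 (permutation adjusted p = 0.00431), Foxp3 to Cd3e 0.96 (0.00727), Cd8a to Cd8b1 -0.69 (0.00934) and Gzmb to Cd3e 0.44 (0.296).

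**Figure D4:**
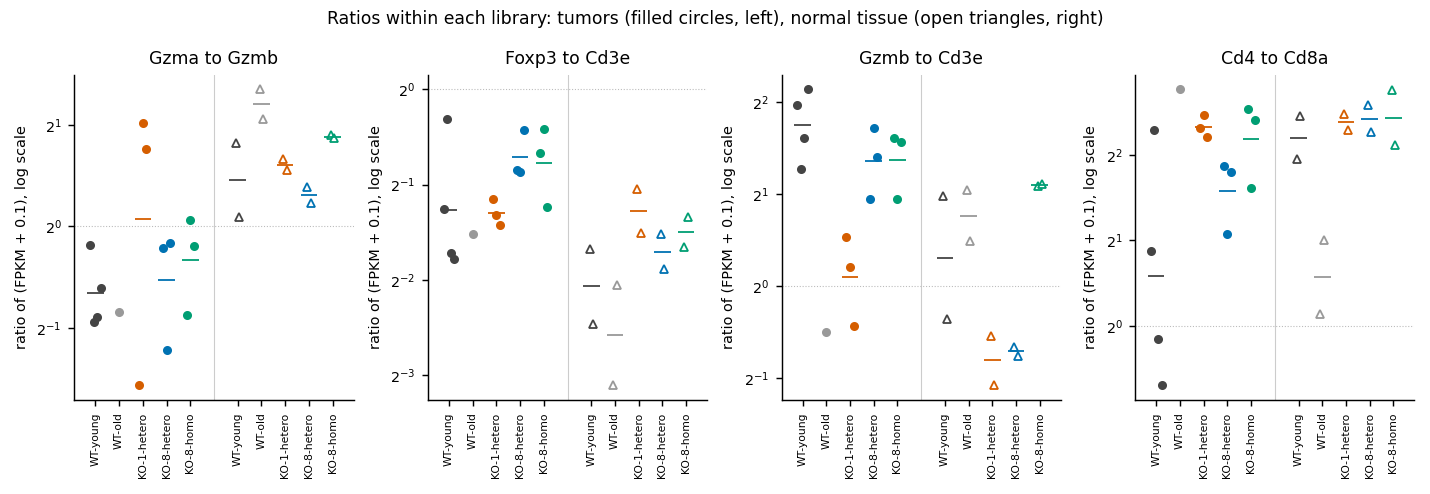
4 of the ratios of FPKM + 0.1 in each library, on log axes, by title group (filled circles for tumors, open triangles for normal tissue), with a bar at each group mean of the log2 ratio. Gzma to Gzmb lies at 1.06 or above in all 10 normal libraries and at a median of 0.753 in the 14 tumors.

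KO-labelled and WT-labelled tumors, the contrast in the title of the series, were compared next. None of 9 members passed, where 0.00725% of all genes did, and none had an unadjusted p under 0.05 (limma). Cd8a was at 0.470 to 2.19 FPKM in 9 KO-labelled and 0.430 to 3.08 FPKM in 5 WT-labelled tumors, and its difference of -0.47 had an interval of -1.004 to 0.07. Gzmb gave -0.29 (interval -0.97 to 0.40), Foxp3 0.21 (-0.22 to 0.64) and Cd3e 0.00 (-0.69 to 0.69). WT-old tumor 1 was the highest of the WT-labelled tumors for Cd3d, Cd3e, Cd3g, Cd4, Cd8a, Cd8b1 and Foxp3, and 0 members passed without it as well. Ifng averaged 0.426 ± 0.407 FPKM (SD, n = 9) and 0.637 ± 0.255 FPKM (SD, n = 5), with an exact permutation p of 0.233. Normal tissue gave 0 of 9 (0% of all genes), with Gzma at 2.24 ± 2.26 FPKM (SD, n = 6) under the KO label and 6.76 ± 7.10 FPKM (SD, n = 4) under the WT label. In the 5 ratios between KO-labelled and WT-labelled tumors, adjusted p ran from 0.204 to 0.541 (exact permutation).

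Title groups were then compared one by one, in each case with WT-young tumors, which all 3 KO groups share as the control, so that the resulting differences are not independent of each other. In KO-1-hetero tumors, Cd3e and Foxp3 were called higher than in WT-young tumors, 2 of 9 members, where 2.88% of all genes were called, 1.63% higher and 1.25% lower. In 5 of 9 members (Cd3d, Cd3e, Cd3g, Cd4 and Foxp3) every KO-1-hetero tumor lay above every WT-young tumor, which 12.6% of all genes did, while the ranges of the CD8 and granzyme genes overlapped. Both calls were lost in 6 of the 7 fits that left out 1 tumor of these groups.

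Cd3e measured 3.94, 3.11 and 7.36 FPKM in the KO-1-hetero tumors and 1.40, 0.878, 2.41 and 2.07 FPKM in the WT-young tumors (difference 1.08 on the log2 scale, SE 0.277, limma adjusted p = 0.0455). Foxp3 measured 1.73, 1.19 and 2.68 FPKM against 0.530, 0.685, 0.666 and 0.531 FPKM (0.81, SE 0.202, limma adjusted p = 0.0419). KO-1-hetero tumor 3 was the highest in both, and the lowest KO-1-hetero tumor was still above the highest WT-young tumor. Cd3g measured 11.6, 13.8 and 23.1 FPKM against 6.01, 3.18, 6.12 and 7.63 FPKM (1.34, limma adjusted p = 0.0588), and Cd4 5.95, 4.04 and 10.5 FPKM against 2.28, 2.50, 2.18 and 1.40 FPKM (1.27, limma adjusted p = 0.0599). Cd3d measured 4.22, 4.67 and 10.1 FPKM against 2.88, 1.34, 3.52 and 3.05 FPKM (0.94, limma adjusted p = 0.144). The groups did not overlap in any of these 3, although none passed.

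The CD8 and granzyme genes were not called. Cd8a measured 1.12, 0.646 and 2.19 FPKM in the KO-1-hetero tumors and 1.19, 0.430, 2.44 and 2.32 FPKM in WT-young tumors (-0.13, interval -0.80 to 0.53). Gzmb measured 5.75, 3.60 and 5.40 FPKM against 5.76, 2.27, 7.55 and 9.44 FPKM (-0.19, interval -0.98 to 0.60). Cd8b1 gave 0.23 and Gzma 0.44, and all 4 had ranges that overlapped. Relative to Cd3e, Gzmb stood at 0.737 to 1.45 in KO-1-hetero tumors and at 2.42 to 4.40 in WT-young tumors, without overlap, a description without a test. Because Cd3e, the denominator, was itself called higher in KO-1-hetero tumors, this ratio is not a result separate from that call.

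Leaving out KO-1-hetero tumor 1, KO-1-hetero tumor 3 or any 1 of the 4 WT-young tumors removed both calls (0 members), and leaving out KO-1-hetero tumor 2 gave 3. With log2(Xist + 1) as a covariate, 0 members were called. B cell markers were higher in 3 of 5 (Cd79a by 3.01, Cd79b by 2.49 and Ms4a1 by 2.24), with sums of 37.1 to 119 FPKM in KO-1-hetero and 2.85 to 16.7 FPKM in WT-young tumors. The plasma cell gene Mzb1, the dendritic genes Cd209a and Flt3 and the smooth muscle genes Cnn1 and Des were also higher, by 2.32, 1.23, 0.65, 2.58 and 2.94. Macrophage markers, some of whose cells carry Cd4, summed to 245 to 362 FPKM against 123 to 197 FPKM, with 0 of 6 called. The part of these cells in the result was not tested. From the lists, 2 of 11 signalling genes rose (Cd5 and Cd247), as did 3 of 11 checkpoint and costimulatory genes (Icos, Tigit and Pdcd1). So did 3 of 11 chemotaxis genes (Ccr7, Cxcr6 and Ccr6), 1 of 6 transcription factors (Runx3) and 1 of 3 cytokine and receptor genes (Il2ra). No cytotoxic gene of 5 was called, and Gbp2, an interferon gamma target, was lower by 1.63, the only one of 12. The differences of the rising genes were between 0.76 for Il2ra and 1.44 for Ccr6 on the log2 scale.

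The same tumors were compared with KO-8-hetero tumors, which carry the same zygosity word and another leading number. None of 9 members was called, as for 0% of all genes, but 5 had an unadjusted p under 0.05 (limma). Cd3d, Cd3e and Cd3g were again above without overlap (6.51% of all genes). Cd3e measured 2.86, 0.832 and 1.62 FPKM in KO-8-hetero tumors, a difference of 1.07 (SE 0.296, limma adjusted p = 0.234).

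Neither KO-8 group had a called member against WT-young tumors. KO-8-hetero gave 0 of 9 called (0.00725% of all genes), with differences between -0.35 for Gzmb and 0.44 for Cd4. KO-8-homo gave 0 of 9 called (0.457% of all genes, 0.058% higher and 0.399% lower), with differences between -0.53 for Cd8b1 and 0.55 for Cd4. Cd4 measured 4.06, 3.53 and 2.93 FPKM in KO-8-homo tumors, above all WT-young tumors (9.81% of all genes lay above), with a limma adjusted p of 0.648. Macrophage markers, beside Cd4, summed to 197 to 296 FPKM in the KO-8-homo tumors and 123 to 197 FPKM in WT-young tumors. Their part was not tested.

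Ifng was low in all 3 KO-8-homo tumors. It measured 0.184, 0.0855 and 0.0400 FPKM in these (9, 4 and 2 reads' worth) and 0.421, 0.428, 0.565 and 1.03 FPKM in WT-young tumors (19, 20, 24 and 35). All 3 lay below all 4, as did 11.4% of the genes that passed the filter, a set without Ifng. They also lay below the KO-8-hetero tumors at 0.340, 0.391 and 1.08 FPKM (24, 15 and 45), as did 4.76% of these genes. KO-1-hetero tumor 2, at 0.0622 FPKM (2), had a value within the KO-8-homo range. The exact permutation test gave a two-sided p = 0.0571 against WT-young (adjusted over 9 tests 0.171) and p = 0.1 against KO-8-hetero, the smallest values that 3 against 4 and 3 against 3 allow. With no low-value filter, limma gave adjusted p = 0.349 and 0.759. Neither difference passed a test, and the exact test could not have passed at these numbers.

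**Figure D5:**
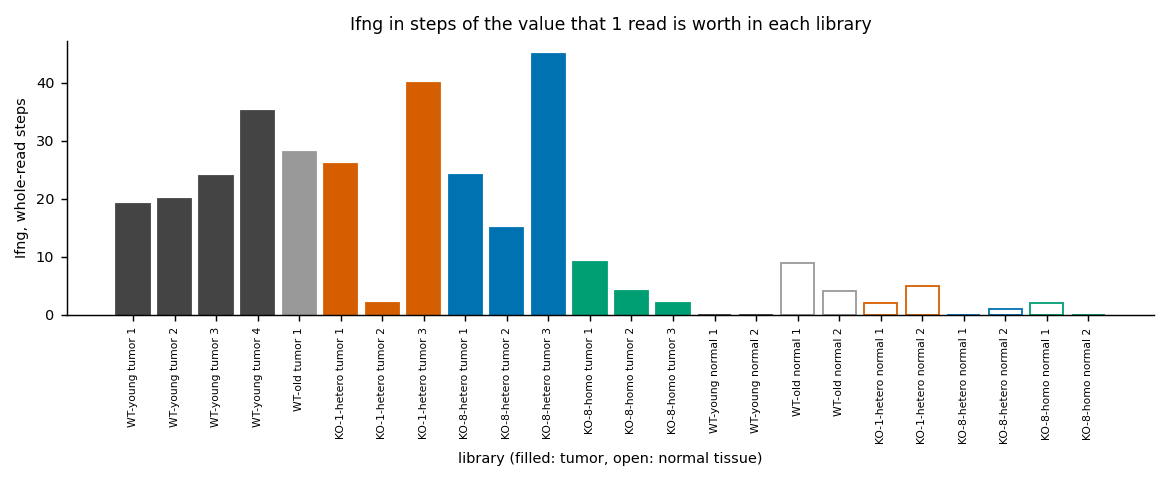
Ifng in each library as a number of steps of the value that 1 read is worth, filled for tumor and open for normal tissue, by title group. The 3 KO-8-homo tumors (9, 4 and 2) and KO-1-hetero tumor 2 (2) are the lowest of the tumors, and normal libraries lie between 0 and 9.

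Of the 12 tested genes of the interferon gamma receptor, its signalling and its targets, 3 targets were lower in KO-8-homo than in WT-young tumors, and the median difference of the whole list was -1.01 against 0.00 over all genes. Ido1, which degrades tryptophan, measured 9.71 ± 2.87 FPKM (SD, n = 3) against 80.3 ± 25.6 FPKM (SD, n = 4), a difference of -2.91 on the log2 scale (limma adjusted p = 0.0259). Nlrc5, the activator of MHC class I genes, measured 2.63 ± 0.787 against 10.98 ± 0.686 FPKM (-1.74, limma adjusted p = 0.0141). Gbp2, a guanylate-binding protein, differed by -2.79 (limma adjusted p = 0.0019), and by -2.74 from KO-8-hetero tumors (limma adjusted p = 0.017). In WT-old tumor 1, which stood apart in lymphocyte genes, Ifng was at 0.739 FPKM and Ido1 at 5.22 FPKM. A link between Ifng and these targets was not tested. None of the 5 cytotoxic genes and none of the 11 signalling genes was called in this comparison, and mast cell markers summed to 43.0 to 68.6 FPKM in KO-8-homo against 42.1 to 272 FPKM in WT-young tumors.

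KO-8-homo and KO-8-hetero tumors, which share the leading number and differ in the zygosity word, gave 0 of 9 members called (0.0507% of all genes). Cd8b1 measured 0.700, 0.819 and 0.616 FPKM in the KO-8-homo tumors and 1.39, 0.932 and 1.12 FPKM in KO-8-hetero tumors, below without overlap as were 4.76% of all genes, and its difference was -0.32 (interval -0.96 to 0.31). Ranges of the other 8 tested members overlapped.

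Within normal tissue the granzymes were highest in WT-old normal 1, and their values by group are a description from 2 libraries each. Gzma was at 16.9 and 5.72 FPKM in WT-old libraries, 5.59 and 4.52 FPKM in the KO-8-homo libraries, and 4.04 and 0.400 FPKM in WT-young libraries. It was at 1.75 and 0.514 FPKM in KO-1-hetero and 0.487 and 0.584 FPKM in KO-8-hetero libraries. Gzmb was at 6.54 and 2.68 FPKM in WT-old libraries. The KO-8-homo pair gave 2.95 and 2.42 FPKM for Gzmb, the WT-young pair 2.24 and 0.371 FPKM, the KO-1-hetero pair 1.07 and 0.319 FPKM, and the KO-8-hetero pair 0.347 and 0.484 FPKM. The 4 KO-1-hetero and KO-8-hetero normal libraries are those with Xist above 1 FPKM, so that Xist and title group cannot be told apart in these groups. Cd3e lay between 0.505 and 3.13 FPKM over the same 10 libraries, highest in WT-old normal 1 as well.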

How the data were processed

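RNA was extracted from colorectal tissue with a miRNeasy Mini kit and sequenced after TruSeq Stranded mRNA preparation, per the labels' protocols. The authors deposited 1 table of FPKM values per library. The submitters' processing notes name TopHat2 2.1.1, Bowtie2 2.2.8, SAMtools 0.1.18, Cuffdiff 2.2.1 and mm10, without role or order. Fragment totals are unknown, so that relative depth was estimated from the smallest values and no interval was given for FPKM.

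Groups came from the titles and genotype labels. Values were tested as log2(FPKM + 1) with limma 3.58.1 (R 4.3.3; lmFit, contrasts.fit, eBayes with trend), two-sided, on the 13799 genes reaching 1 FPKM in 4 or more of the 24 libraries, all of which entered the fit, with Benjamini-Hochberg adjustment over all genes and a threshold of 0.05. One model had label by tissue, another the 10 title groups. Such differences understate low genes. The label by tissue model was tested on simulated data, for tumor against normal tissue under the KO label only. Changes were planted only in genes of lower spread and higher values, so that low genes and the title group model were not covered. Ratios (pseudocount 0.1) and Ifng were compared by permutation with scipy 1.17.1 and Python 3.11.15. Named genes were the members, up to 3 called genes per list by smallest p, and the 3 genes most correlated with each member. The members and lists were chosen with earlier results of these data known. Some genes of the lists are not reported here and were left out of the list counts and sums. Alternatives covered the pseudocount, filter, scaling, Xist, the replicate block and each library left out. Coordinates and sequences come from RefSeq for GRCm38.p6.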

Additional observations from a re-analysis of the deposited data

Results flagged for a closer look

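Of 60 sets of 4 to 10 libraries tested gene by gene for a value far from the others (Dixon's test), 19 were marked. The critical values mark about 1 in 20 by chance if values are normally distributed within 1 group. Untransformed FPKM were used and most sets join several title groups, so that this rate need not hold here. In each, the highest library stood apart, and the sets overlap, so that the marks are not independent.

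WT-old tumor 1 stood apart from the other WT-labelled tumors for 5 genes: Cd3d at 12.7 FPKM, Cd3e at 8.09, Cd3g at 23.5, Cd4 at 21.6 and Foxp3 at 2.76. The same tumor had B cell markers summing to 916 FPKM, macrophage markers to 391 FPKM and dendritic markers to 36.2 FPKM. It is the only tumor of its title group.

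KO-1-hetero tumor 3 stood apart from the other KO-labelled tumors for 4 genes: Cd3d at 10.1 FPKM, Cd3e at 7.36, Cd4 at 10.5 and Cd8b1 at 3.38. It is also 1 of the 2 tumors with Xist above 1 FPKM.

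In normal tissue, WT-old normal 1 stood apart from all others for Cd3e at 3.13 FPKM, Cd8a at 3.02, Gzma at 16.9, Gzmb at 6.54 and Ifng at 0.343. KO-1-hetero normal 1 stood apart for Cd3d at 3.66 FPKM among KO-labelled normal libraries, and for Foxp3 at 0.725 FPKM both there and among all normal libraries. KO-8-homo normal 1 stood apart for Cd4 at 6.83 FPKM, and KO-1-hetero normal 2 for Ifng at 0.1596 FPKM, a value of 5 reads' worth.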

How the results depend on the processing

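Of 115 alternatives to the counts and ratios that left out no single library, 96 were rated the same as the main result. A ratio was rated the same if it kept direction and side of the threshold. A count of members called was rated the same if it was equal or close to the main count, so that small changes in a count do not show here. Members called between tumor and normal tissue numbered 3 under the KO label and became 5 with a pseudocount of 0.1, 5 with the replicate block and 6 without the WT-old libraries, and 2 to 4 with 1 library left out. Under the WT label 0 became 1 with a pseudocount of 0.1, 1 without the low-value filter, 3 with the replicate block and 1 without the WT-old libraries, and 0 to 3 with 1 library left out. In KO-1-hetero against WT-young tumors 2 became 0 with a pseudocount of 0.1, 1 without the filter, 0 with Xist as a covariate and 0 without WT-old tumor 1 and KO-1-hetero tumor 3 (chosen after seeing the data), and 0 to 3 with 1 library left out. These counts, and those above with a library left out, are given without the share of all genes called in the same fit. The main fits called 47.2% (KO label), 30.4% (WT label) and 2.88% (KO-1-hetero against WT-young) of all genes. A changed count is therefore not a result about the members. Pairing by replicate number was not evident: 1 of 8 same-numbered pairs correlated above 0.1 (-0.16 to 0.35), and 1 correlated best with its own number. The check cannot exclude pairing, because the deviations of the 2 normal libraries of a group from their mean mirror each other. The block changed no other count.

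Of the tumor against normal ratios, Cd4 to Cd8a reversed to 0.0025 with a pseudocount of 1 (adjusted permutation p = 0.99), and Foxp3 to Cd3e fell short at 0.087 there and at 1.00 in WT-labelled libraries alone. Gzma to Gzmb fell short at -0.86 and -1.53 in KO-labelled and WT-labelled libraries alone, which have fewer libraries. In WT-labelled libraries its unadjusted exact permutation p was the smallest that their number allows. Cd8a to Cd8b1 passed at -0.69 in libraries with Xist under 1 FPKM, and Gzmb to Cd3e passed at 1.22 without the WT-old libraries and at 1.20 without the pair of tumors. With 1 library left out, Cd8a to Cd8b1 ran from -0.56 to -0.33 and passed in 6 of 24 tests. Gzmb to Cd3e ran from 0.81 to 1.06 and passed in 7 of 24. Foxp3 to Cd3e between KO-labelled and WT-labelled tumors ran from 0.27 to 0.64 and passed in 1 of 14, without WT-young tumor 2. The causes of these changes were not tested. Of 309 single-gene values with an unadjusted p under 0.05 in the main fit, 0 changed sign. These were selected by that p and refitted on mostly the same libraries, so that few changes of sign could occur. Of the 1266 other values, 138 changed sign, at main differences of up to 1.02 in size. Of 94 called values, 65 stayed called. Depth limits Ifng, at 45 reads' worth or fewer in each library.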
